A study of Mus musculus with 30 samples.

Results

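The genes described here carry out fatty acid oxidation, the stepwise breakdown of fatty acids, in mitochondria and peroxisomes. They were taken from a list of 34 gene names and kept where the array held a probe with that name. Of the 34, 31 were measured, out of 14763 named genes and 19231 gene or probe entries in all. They comprise 19 of 21 listed mitochondrial and 12 of 13 listed peroxisomal members. Acsl1, Crat and Abcd2 had no named probe and were not measured here. Probes of a gene were averaged: 25 members had 1 probe and 6 members (Cat, Cpt1a, Cpt2, Decr1, Etfa and Scp2) had 2.

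Mitochondria oxidise most long-chain fatty acids. Carnitine palmitoyltransferases bring the acyl chain into the matrix, acyl-CoA dehydrogenases open each round of the spiral and hand electrons to the electron transfer flavoprotein, and the hydratase, hydroxyacyl-CoA dehydrogenase and thiolase steps release acetyl-CoA. Peroxisomes shorten very long and branched chains, pass hydrogen peroxide to catalase, and depend on peroxins for their membranes and for protein import. Fat cells store fatty acids and also raise their oxidative machinery as they mature, and many of these enzymes are known targets of the PPAR nuclear receptors.

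RNA was measured in 3T3-L1 cells, an established mouse line of preadipocytes that can become fat cells in culture, on 30 arrays in 10 groups of 3. Treatment began 2 days after the cells had become confluent, the medium held 10% FBS, and every culture was harvested on day 10. The solvent control received 0.1% DMSO. The positive control, MDI, received isobutyl methylxanthine (0.5 mM), dexamethasone (0.25 µM) and insulin (10 µg/mL) for 48 h, followed by insulin at the same concentration for 8 days. The 8 other groups received ROSI, TBT, BPA, BBP, DEHP, BP, EB or PP for 10 days. The labels do not spell these codes out. In common use ROSI stands for rosiglitazone, an agonist of PPAR gamma, TBT for tributyltin, BPA for bisphenol A, and BBP and DEHP for the phthalate diesters benzyl butyl phthalate and di(2-ethylhexyl) phthalate. BP, EB and PP are kept as codes, and the labels state doses for none of the 8.

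Each array set the Cy3-labelled RNA of a sample against a Cy5-labelled common reference, a pool of control and exposed samples. A value is therefore a log2 ratio of sample over reference, and only differences between groups can be read from it. The design text calls the 3 arrays of a group biological replicates without saying that they came from separate cultures. P-values rest on the spread between arrays within groups, estimated over all 10 groups together and not only the groups compared. Whether that spread covers separate cultures is not known. The number of arrays limits the precision. A member was called higher or lower at an adjusted p under 0.05 in limma's moderated test, adjusted over all 19231 entries. The 9 comparisons with DMSO share the same 3 control arrays. In bulk RNA, a different share of fat cells and a different RNA level per cell cannot be told apart. The median log2 fold change of 10 adipocyte markers (Adipoq, Fabp4, Plin1, Pparg, Cebpa, Lpl, Cd36, Cidec, Lep and Retn) is therefore given beside the results. It was 3.81 in MDI, 2.14 in ROSI, 1.66 in TBT, 2.47 in BP, 2.06 in PP, 1.58 in BBP, 1.44 in BPA, 0.34 in EB and 0.10 in DEHP. Of the preadipocyte markers, 5 of 6 were measured; 3 of them fell in MDI, 4 in ROSI, 5 in TBT, 3 in BPA, 2 in BP, 2 in PP, 1 in BBP and 0 in EB and DEHP. Of hepatocyte, macrophage and endothelial markers 1, 3 and 1 were measured, and against DMSO Cd68, a macrophage marker, was the 1 called, higher in ROSI (0.19, adjusted p = 0.00553). Of 3 muscle markers Acta1 was measured, and it fell in 7 agents, from -1.04 in MDI, -0.91 in BPA and -0.88 in ROSI to -0.29 in BBP. The part of the cell mixture in the results below was not tested.

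Nearly the whole set was higher with the cocktail than with solvent. In MDI, 28 of 31 members rose and 2 fell, against 20.1% of all entries called higher and 18.3% called lower. The members' median log2 fold change was 1.16, that of all entries 0.0024. In ROSI 29 members rose and 0 fell (background 16.5% higher and 14.3% lower), and in TBT 30 rose and 0 fell (14.1% and 10.6%). Their medians were 1.20 and 0.90. Further agents gave smaller rises. In BP 26 rose and 0 fell (12.9% and 8.73% of all entries), with a median of 0.62. In PP 27 rose and 0 fell (12% and 8.24%), with a median of 0.70. In BPA 23 rose and 1 fell (12.3% and 6.97%), and in BBP 22 rose and 0 fell (6.9% and 2.35%), with medians of 0.31 and 0.39. In EB 5 rose and 0 fell (0.432% and 0.25%), and in DEHP 0 members were called (0.0104% higher and 0.0052% lower). The counts for the weaker agents depended on scaling. After quantile normalization, which gives every array the same distribution, 9 members were called in BPA, 5 in BBP and 0 in EB. In MDI 28 were then called higher and 2 lower, and 28 and 30 were called higher in ROSI and TBT. Of all 19231 entries, that scaling called 1493 higher and 1392 lower in BPA, 628 and 542 in BBP and 6 and 23 in EB. It called 3001 and 3312 in MDI, 2758 and 3103 in ROSI and 2433 and 2459 in TBT.

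**Figure D1:**
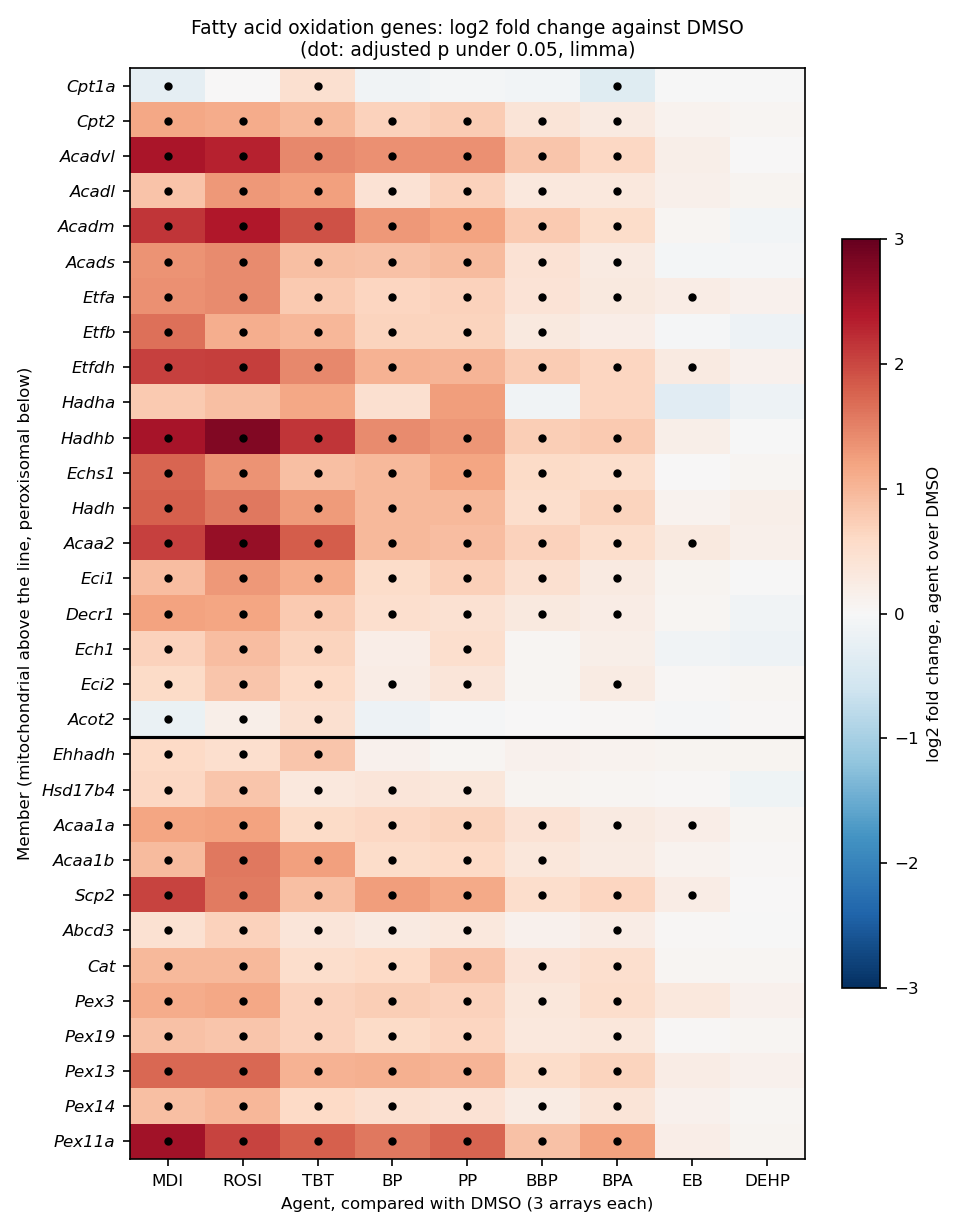
Log2 fold change of each of the 31 measured members (rows, mitochondrial above the line) against DMSO for each agent (columns, 3 arrays a group); red is higher than DMSO, blue is lower, and a dot marks an adjusted p under 0.05 in limma. Most rows are red and dotted in MDI, ROSI and TBT, pale in EB and DEHP, and Cpt1a is blue in MDI and BPA but red in TBT. After quantile normalization Hadhb in BBP turned negative.

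Entry into mitochondria did not move as one. Cpt1a encodes the liver-type carnitine palmitoyltransferase of the outer membrane, the regulated gate of the pathway. Its log2 ratios were -0.026, -0.0028 and 0.083 in the DMSO arrays, -0.25, -0.27 and -0.24 in MDI, -0.40, -0.28 and -0.37 in BPA and 0.43, 0.57 and 0.50 in TBT. All MDI and BPA arrays lay below all DMSO arrays, and all TBT arrays lay above them. Cpt1a fell in MDI (log2 fold change -0.27, SE 0.047, adjusted p = 3.48e-05) and in BPA (-0.37, SE 0.047, adjusted p = 2.35e-06). It rose in TBT by 0.48 (SE 0.047, adjusted p = 1.14e-08). In ROSI, with arrays at -0.011, 0.11 and 0.023, it overlapped DMSO and was not called (0.021, 95% interval -0.075 to 0.12). In the 5 other agents its fold changes lay between -0.10 and -0.011, and none was called. The 2 probes of Cpt1a disagreed on the decrease. In MDI they gave -0.49 and -0.05, and in BPA -0.63 and -0.10, so that most of the mean decrease came from 1 probe. In TBT both were higher, by 0.45 and 0.50. Cpt2, the inner-membrane enzyme that regenerates acyl-CoA in the matrix, rose in 7 of 9 agents, from 0.27 in BPA to 1.16 in MDI (adjusted p = 1.68e-13). Its 2 probes also differed in size in MDI, 1.63 against 0.68, but not in direction. In BPA the call of Cpt2 was lost without BPA replicate 2 (0.19) and in a fit of only the compared groups. After quantile normalization its calls were lost in BPA (0.028) and BBP (0.13).

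The 4 acyl-CoA dehydrogenases, which start each round on chains of different lengths, rose in every agent except EB and DEHP, where 0 of 4 were called. Acadvl acts on the longest chains. It stood at -1.24, -1.15 and -1.19 in DMSO, 1.23, 1.18 and 1.36 in MDI and 1.17, 1.07 and 1.13 in ROSI, with no overlap between treated and control arrays. It rose 5.46-fold in MDI (log2 2.45, SE 0.085, adjusted p = 7.51e-18), 4.98-fold in ROSI and 2.7-fold in TBT. Acadm, the medium-chain enzyme, stood at -1.17, -1.31 and -1.23 in DMSO and reached 1.11, 1.09 and 1.33 in ROSI. It rose 5.33-fold there (log2 2.41, SE 0.083, adjusted p = 1.4e-17) and 4.43-fold in MDI. Acadl, the long-chain enzyme, had another order: its log2 fold change was 0.85 in MDI, 1.29 in ROSI and 1.23 in TBT. Acads, the short-chain enzyme, rose by 1.35 in MDI and 1.41 in ROSI. In BPA it rose by 0.27 (adjusted p = 0.0472), a call lost without DMSO replicate 1 or 2 or BPA replicate 1 or 3 (0.19 to 0.26). After quantile normalization all 4 lost their call in BPA (0.031 to 0.13). Acadl, Acadm and Acads also lost theirs in BBP (0.12 to 0.28).

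The electron transfer flavoprotein takes electrons from these dehydrogenases and passes them through its oxidoreductase, Etfdh, to the respiratory chain. Etfdh stood at -1.24, -1.31 and -1.33 in DMSO, 0.76, 0.67 and 0.81 in MDI, 0.84, 0.69 and 0.77 in ROSI and 0.24, 0.12 and 0.11 in TBT, and the 3 treated groups lay clear of DMSO. Its fold changes were 4.12 in MDI, 4.18 in ROSI and 2.73 in TBT (adjusted p = 3.74e-19, 7.46e-19 and 1.62e-15). Of the subunits of the flavoprotein itself, Etfa rose by 1.36 in MDI and 1.41 in ROSI, on the log2 scale, whereas Etfb rose by 1.65 and 1.08. In BPA Etfa rose by 0.30, and Etfb was at 0.20 and was not called (adjusted p = 0.0808). After quantile normalization Etfa and Etfdh lost their calls in BPA (0.040 and 0.12). Etfa, Etfb and Etfdh also lost theirs in BBP (0.11, 0.0039 and 0.14).

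The later steps of the spiral include the trifunctional protein, whose alpha and beta subunits are encoded by Hadha and Hadhb. Hadhb gave the largest fold change of all members. Its log2 ratios were -1.59, -1.65 and -1.67 in DMSO, 0.74, 0.77 and 0.97 in MDI, 1.12, 1.03 and 1.27 in ROSI and 0.48, 0.61 and 0.46 in TBT. They were -0.28, -0.20 and -0.18 in BP, -0.23, -0.33 and -0.38 in PP, -0.89, -0.97 and -0.81 in BBP and -0.89, -0.91 and -0.77 in BPA, and -1.22, -1.50 and -1.64 in EB and -1.84, -1.49 and -1.61 in DEHP. The groups thus fell into a high range (ROSI, MDI and TBT), a middle range and a low range that EB and DEHP shared with DMSO. Hadhb rose 6.86-fold in ROSI (log2 2.78, SE 0.091, adjusted p = 5.94e-18), 5.51-fold in MDI and 4.44-fold in TBT. In BBP it rose by 0.75 on the log2 scale, but stood at -0.18 after quantile normalization. Hadha, by contrast, was not called in any comparison when all groups were fitted together. Its arrays spread widely within groups, with -1.46, -0.46 and 2.42 in BPA, and the SE of its fold changes was 0.60 against 0.091 for Hadhb. Its fold changes against DMSO ran from -0.33 in EB to 1.24 in PP. The SE was estimated over all 10 groups, and the SD of Hadha was 0.13 in DMSO and 2.01 in BPA. In a fit of only the compared groups, Hadha was called higher in MDI, ROSI and TBT. Whether it moved with Hadhb in the other agents is not settled. Echs1, the short-chain hydratase, rose by 1.74 in MDI, 1.34 in ROSI and 1.19 in PP.

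Hadh, the dehydrogenase for shorter hydroxyacyl chains, stood at -0.81, -0.76 and -0.61 in DMSO and 1.11, 0.93 and 1.15 in MDI, without overlap, and rose 3.46-fold (adjusted p = 4.7e-17). Acaa2 is the mitochondrial thiolase that splits off acetyl-CoA. It stood at -1.25, -1.19 and -1.15 in DMSO, 0.85, 0.80 and 0.92 in MDI, 1.39, 1.35 and 1.49 in ROSI and 0.68, 0.60 and 0.58 in TBT. These 4 groups did not overlap, and ROSI was the highest. Acaa2 rose 6.08-fold in ROSI (log2 2.60, SE 0.053, adjusted p = 4.88e-21), 4.15-fold in MDI and 3.52-fold in TBT.

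Hadha and Hadhb lie head to head on mouse chromosome 5, and their RefSeq starts are 273 bases apart. The stretch in front of the Hadhb start is shown because it lies between the 2 starts. With all groups fitted together, Hadhb was called in 7 agents and Hadha in 0. Short stretches of 3 further members are shown because these were the members whose promoter window held the sequence searched for. That sequence was the hexamer AGGTCA repeated after 1 base, the direct repeat that PPAR and RXR receptors are known to bind, with at most 2 mismatches over its 12 hexamer letters and on either strand. All sequences are from RefSeq (GRCm38.p6), are written 5′ to 3′ on the strand of the gene, and end before its start. Capitals mark the matched 13 bases. The Hadhb stretch, with no capitals, is chr5:30155003-30155252 (+ strand). The others are chr7:140116458-140116538 (- strand) for Echs1, chr9:55512274-55512354 (- strand) for Etfa and chr2:103485311-103485391 (- strand) for Cat.
Hadhb: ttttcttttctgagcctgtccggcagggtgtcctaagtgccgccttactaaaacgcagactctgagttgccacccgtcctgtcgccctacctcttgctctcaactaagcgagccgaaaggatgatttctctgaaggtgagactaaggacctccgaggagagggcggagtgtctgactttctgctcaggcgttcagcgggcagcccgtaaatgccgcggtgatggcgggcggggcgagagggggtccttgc
Echs1: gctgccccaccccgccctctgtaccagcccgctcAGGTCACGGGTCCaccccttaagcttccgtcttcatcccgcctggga
Etfa: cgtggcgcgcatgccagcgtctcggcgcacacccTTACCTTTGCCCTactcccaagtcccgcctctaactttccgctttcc
Cat: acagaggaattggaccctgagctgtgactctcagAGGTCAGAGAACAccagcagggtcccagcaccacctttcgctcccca

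The matches in Echs1 and Cat read in the direction of the gene and that in Etfa on the other strand, each with 2 mismatches. Promoter windows of 250 bases before to 50 after a start were at hand for 28 of the 34 listed genes, 30 windows in all. The repeat was found in 3 of these 30 (10%), against 3.86% of 32851 promoter windows of the genome. The exact letters TCAAGGTCA, which ERR receptors are known to bind, were found in 0 of the 30 and in 0.423% of all windows. A match is a description of letters and shows no binding. Without a match, nothing follows for sites outside these windows. The 3 genes with a match rose by 1.74 (Echs1), 1.36 (Etfa) and 0.97 (Cat) in MDI. Members without one reached higher values.

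Auxiliary enzymes let the spiral use unsaturated chains. Eci1 and Eci2 are isomerases that move double bonds, Decr1 is a reductase and Ech1 an isomerase for dienes, and Ech1 and Eci2 are also found in peroxisomes. All 4 rose in MDI, ROSI, TBT and PP. Eci1 was highest in ROSI, at 1.29 against 0.92 in MDI. Decr1 rose by 1.21 in MDI and 1.17 in ROSI. Its 2 probes differed in size, 0.68 and 1.74 in MDI and 0.58 and 1.76 in ROSI, but not in direction there. Ech1 and Eci2 gave smaller values, 0.69 and 0.57 in MDI, and neither was called in BBP (0.065 and 0.055).

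Acot2 is a mitochondrial thioesterase that releases free fatty acid from acyl-CoA. Its arrays were at 0.073, -0.14 and 0.032 in DMSO, -0.18, -0.18 and -0.24 in MDI, 0.063, 0.18 and 0.23 in ROSI and 0.39, 0.46 and 0.53 in TBT. The MDI arrays all lay below DMSO, the ROSI arrays overlapped it and the TBT arrays lay above every other group. Acot2 rose in TBT by 0.47 (SE 0.058, adjusted p = 6.33e-07). It fell in MDI (-0.19, adjusted p = 0.0119) and rose in ROSI (0.17, adjusted p = 0.0254), but both calls were marginal. The MDI call was lost without DMSO replicate 1 or 3 or MDI replicate 3 (-0.17 to -0.15), and the ROSI call without DMSO replicate 2 or ROSI replicate 2 or 3 (0.11 to 0.16).

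**Figure D2:**
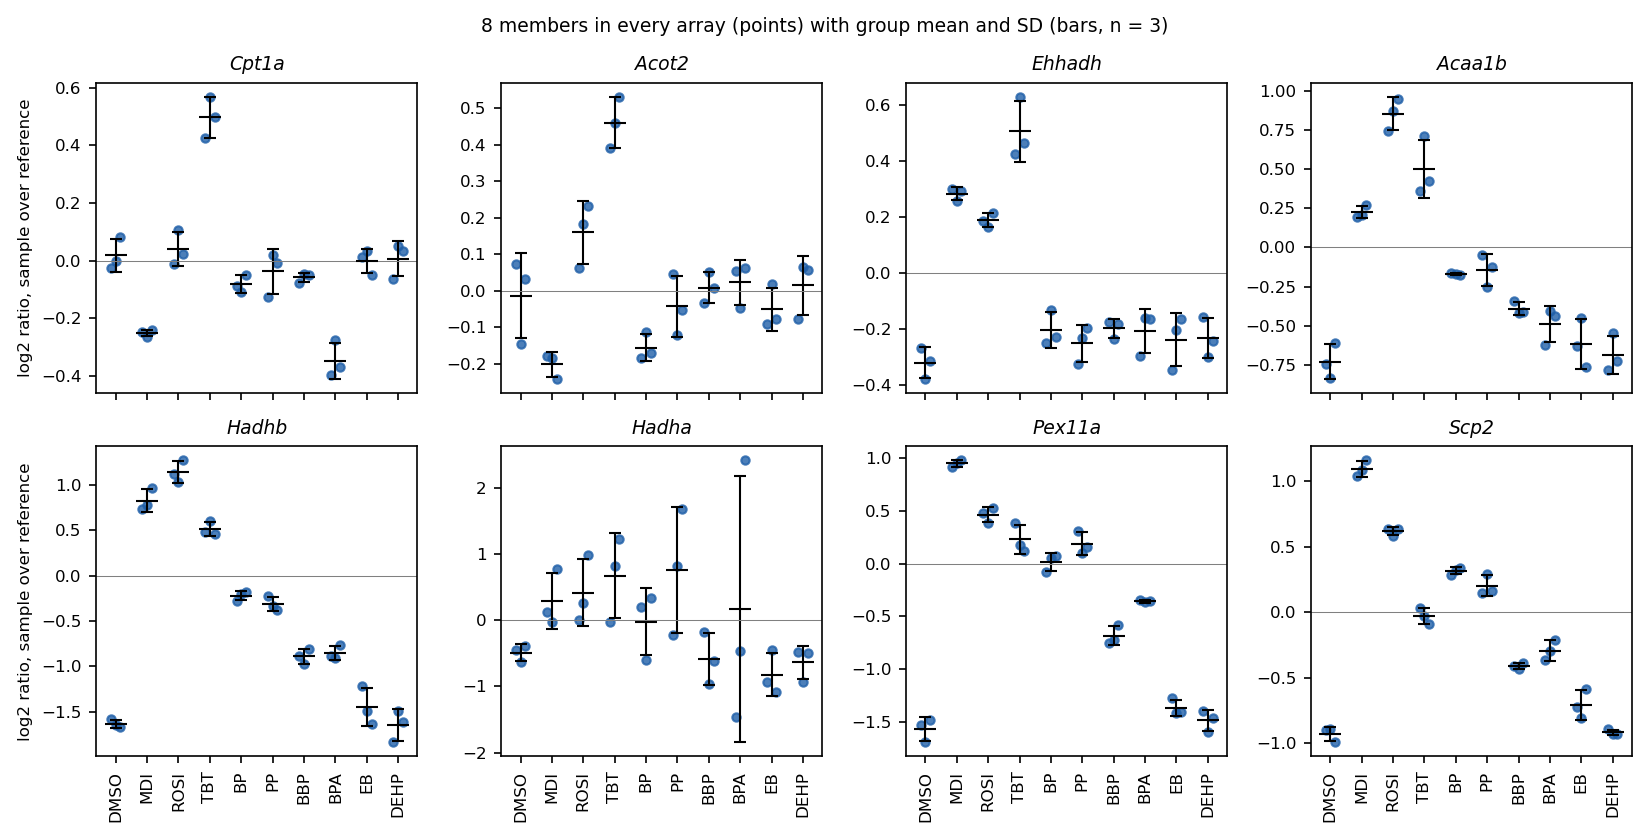
Log2 ratio of sample over reference for 8 members in every array (points), with the mean and SD of each group of 3 (bars); each panel has its own scale. Cpt1a, Acot2 and Ehhadh are highest in TBT, Acaa1b and Hadhb in ROSI, and Pex11a and Scp2 in MDI. Hadha spreads from -1.46 to 2.42 within BPA.

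Peroxisomal oxidation genes rose in all of MDI, ROSI and TBT, 5 of 5 in each. Scp2, which gives rise to a sterol carrier protein and to a thiolase for branched chains, had the highest fold change of them in MDI. It stood at -0.90, -0.89 and -0.99 in DMSO, 1.04, 1.08 and 1.16 in MDI, 0.64, 0.58 and 0.64 in ROSI, 0.28, 0.32 and 0.34 in BP, 0.15, 0.29 and 0.16 in PP and 0.03, -0.032 and -0.093 in TBT. MDI was clear of all other groups, and TBT lay below BP and PP. Scp2 rose 4.06-fold in MDI (log2 2.02, SE 0.052, adjusted p = 3.46e-20) and 1.86-fold in TBT. Ehhadh encodes the bifunctional enzyme of the inducible peroxisomal pathway, a classical PPAR alpha target in liver. Its log2 ratios were -0.27, -0.38 and -0.32 in DMSO, 0.30, 0.26 and 0.29 in MDI, 0.18, 0.17 and 0.21 in ROSI and 0.43, 0.63 and 0.46 in TBT. The other 6 agents had means between -0.25 and -0.20, and 0 of them were called. Ehhadh rose by 0.60 in MDI, 0.51 in ROSI and 0.83 in TBT (adjusted p = 1.69e-09, 5.48e-08 and 1.53e-11). Hsd17b4, the bifunctional enzyme of the constitutive pathway, had its highest value in ROSI (0.82) and a lower one in TBT (0.32).

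Acaa1a and Acaa1b encode the peroxisomal thiolases and are near-identical copies. Whether their probes tell them apart was not tested, and their values are uncertain for that reason. Acaa1b stood at -0.74, -0.83 and -0.61 in DMSO, 0.20, 0.21 and 0.27 in MDI, 0.74, 0.87 and 0.95 in ROSI and 0.36, 0.71 and 0.42 in TBT, and the 3 treated groups did not overlap each other. Acaa1a stood at -0.66, -0.68 and -0.68, 0.50, 0.50 and 0.54, 0.58, 0.46 and 0.55 and -0.071, -0.12 and -0.10 in the same groups, with MDI and ROSI overlapping and TBT well below both. The log2 fold changes of Acaa1b were 0.96, 1.59 and 1.23 in MDI, ROSI and TBT. Those of Acaa1a were 1.18, 1.20 and 0.57, all called.

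Abcd3, a transporter of acyl-CoA through the peroxisomal membrane, rose by 0.46 in MDI and 0.70 in ROSI. Cat, catalase, rose by 0.97 in MDI, 0.97 in ROSI, 0.85 in PP and 0.52 in TBT, so that here PP lay above TBT. The peroxins rose as a group, 5 of 5 in MDI, ROSI, TBT, BP, PP and BPA, 4 of 5 in BBP and 0 of 5 in EB and DEHP. Some of the calls in the weaker agents were lost when single arrays were left out: Pex19 in BPA without DMSO replicate 2 or BPA replicate 1 or 3 (0.27 to 0.31), Pex14 in BBP without DMSO replicate 2 (0.19), and Pex3 in BBP without DMSO replicate 1 or BBP replicate 2 or 3 (0.28 to 0.34). After quantile normalization the calls of Pex3, Pex11a, Pex13 and Pex14 in BBP and of Pex19 in BPA were lost. Pex11a, which helps peroxisomes elongate and divide, was at -1.53, -1.69 and -1.48 in DMSO, 0.92, 0.95 and 0.98 in MDI, 0.48, 0.38 and 0.53 in ROSI and 0.39, 0.18 and 0.12 in TBT. It was at -0.34, -0.37 and -0.36 in BPA and -0.75, -0.72 and -0.58 in BBP, and all of these lay above DMSO. Pex11a rose 5.73-fold in MDI (log2 2.52, SE 0.072, adjusted p = 2.05e-19). In BPA it rose 2.32-fold (log2 1.21, SE 0.072, adjusted p = 8.52e-12), the highest fold change of any member in that group. Pex11a adjoins Plin1, the gene of a lipid droplet coat protein, on mouse chromosome 7; 0 protein-coding RefSeq genes lie between them, and their starts are 10355 bases apart. Plin1 rose by 3.60 in MDI and 2.20 in BPA. Pex13 and Pex14, parts of the import machinery, rose by 1.72 and 0.91 in MDI. Pex13 stood at -0.95, -0.95 and -0.85 in DMSO and 0.94, 0.71 and 0.75 in MDI, without overlap. Pex3 and Pex19, which insert membrane proteins, rose by 1.12 and 0.87 in MDI. Pex3 stood at -0.73, -0.54 and -0.60 in DMSO and 0.53, 0.51 and 0.45 in MDI, also without overlap.

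The 2 compartments were set against each other as the median over mitochondrial members minus the median over peroxisomal members, with no test. In MDI the median log2 fold change was 1.35 over the mitochondrial and 0.96 over the peroxisomal members. The corresponding medians were 1.29 and 1.08 in ROSI, 0.99 and 0.68 in TBT, 0.67 and 0.58 in BP, 0.77 and 0.65 in PP, and 0.41 and 0.34 in BBP. In these 6 groups the mitochondrial median was the higher. The order was the other way in BPA (0.30 and 0.36), EB (0.062 and 0.13) and DEHP (0.023 and 0.053), of which EB and DEHP had few or no called members. Array by array the difference ran from 0.32 to 0.40 in MDI, from 0.13 to 0.28 in ROSI, from 0.22 to 0.33 in TBT, from -0.13 to -0.017 in BPA, from -0.12 to -0.020 in EB and from -0.081 to -0.0021 in DEHP. The DMSO arrays ran from -0.010 to 0.032. The difference ran from 0.046 to 0.25 in PP, from 0.037 to 0.11 in BBP and from 0.015 to 0.19 in BP. The lowest BP array thus lay inside the DMSO range, and after quantile normalization the 2 BP medians were 0.429 and 0.427. The BPA difference of -0.053 turned to 0.062 without the Pex genes, to 0.04 with the most variable probe of each gene and to -0.0043 without DMSO replicate 2, so its sign is not settled. In MDI the difference was 0.16 after quantile normalization and 0.60 with the most variable probe. Within a compartment the spread between members exceeded the difference between compartments: the mitochondrial fold changes in MDI ran from -0.27 to 2.46 and the peroxisomal ones from 0.46 to 2.52.

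**Figure D3:**
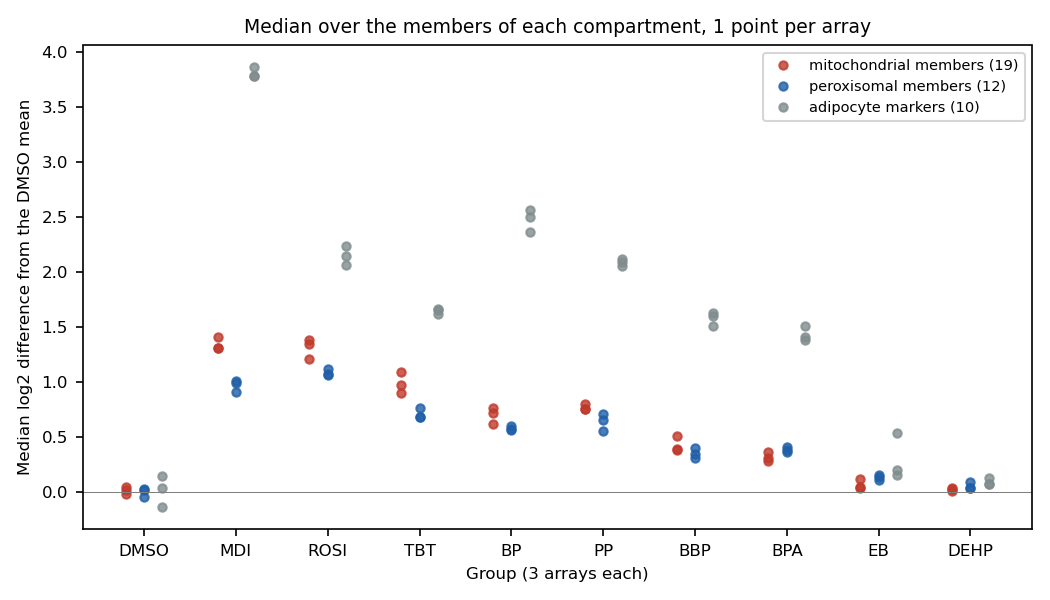
Median log2 difference from the DMSO mean over the 19 mitochondrial members (red), the 12 peroxisomal members (blue) and 10 adipocyte markers (grey), 1 point per array, for 10 groups of 3 arrays. Mitochondrial points lie above peroxisomal points in every MDI, ROSI and TBT array and below them in every BPA, EB and DEHP array. In BPA this sign turned without the Pex genes. BP lies above ROSI for adipocyte markers and below it for both sets of members.

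The order of the agents differed between oxidation genes and adipocyte markers. By array, the mitochondrial median was 1.21 to 1.38 in ROSI and 0.62 to 0.76 in BP, while that of the adipocyte markers was 2.06 to 2.23 in ROSI and 2.36 to 2.56 in BP. In TBT the marker median was 1.62 to 1.66, next to 1.38 to 1.51 in BPA and 1.51 to 1.63 in BBP, and the mitochondrial median was 0.90 to 1.09, next to 0.28 to 0.36 and 0.38 to 0.51. These are values side by side, without a test. Of the 31 members, 18 had their highest group mean in ROSI, 9 in MDI, 3 in TBT and 1 (Hadha) in PP. The lowest mean was in DMSO for 19 members and in DEHP for 8. These ranks of group means were not tested. Between ROSI and MDI 15 of the 31 members were not called, and between DEHP and DMSO 0 were called.

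In BP, PP, BPA and BBP the rises were smaller than in MDI and ROSI at the median, with Pex11a first among the called members in each. In BP the highest log2 fold changes were those of Pex11a (1.58), Hadhb (1.41), Acadvl (1.37) and Acadm (1.30). In PP they were those of Pex11a (1.76), Acadvl (1.37) and Hadhb (1.32). Cpt1a, Acot2, Ehhadh and Hadha were called in neither, and Ech1 was called in PP (0.51) and not in BP (0.20, adjusted p = 0.0615). In BPA, Pex11a was followed by Hadhb (0.78), Pex13 (0.68) and Hadh (0.68). In BBP it was followed by Acadvl (0.82), Acadm (0.78) and Etfdh (0.76). After quantile normalization the calls of Pex11a (0.084), Acadm (0.21) and Etfdh (0.14) in BBP and of Hadhb in BPA (0.071) were lost. Hsd17b4, the constitutive bifunctional enzyme, was called in neither BPA (0.048) nor BBP (0.076), and rose in BP (0.35) and PP (0.33). Single arrays decided the calls of Decr1 in BPA (0.18 without DMSO replicate 2), Eci1 in BPA (0.19 without DMSO replicate 1, 0.25 without BPA replicate 2), Acaa1b in BBP (0.29 without DMSO replicate 2, 0.31 without BBP replicate 1) and Etfb in BBP (0.24 to 0.25 without DMSO replicate 1 or 2 or BBP replicate 1 or 3). Of 10 adipocyte markers, 9 rose in each of these 4 agents.

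In the weak agents few changes could be seen. In EB limma called 5 members: Etfa (0.23, adjusted p = 0.0494), Etfdh (0.26), Acaa2 (0.29), Acaa1a (0.20) and Scp2 (0.22). Acaa2, at -0.90, -1.05 and -0.78 in EB, lay above DMSO in all 3 arrays. The calls depended on single arrays: 0 were left without DMSO replicate 1 or 2 or EB replicate 3, 1 without DMSO replicate 3 and 3 without EB replicate 1. In EB 3 of 10 adipocyte markers were called higher. In DEHP limma called 0 members under the settings described here and under each alternative. At an unadjusted p under 0.05, 4 members were higher and 1 lower in DEHP, against 5.76% and 5.41% of all entries, and 10 were higher and 0 lower in EB, against 7.61% and 5.58%.

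BBP and DEHP are both phthalate diesters. BBP carries a butyl and a benzyl group, DEHP branched ethylhexyl groups. They were compared directly as 1 pair at the same 10 days, and since no dose is given, the difference is not one at matched doses. In DEHP 0 members were higher and 21 were lower than in BBP (background 0.915% higher and 4.77% lower), with a median difference of -0.36. Acadm stood at -1.40, -1.29 and -1.25 in DEHP and -0.49, -0.51 and -0.38 in BBP, without overlap. It was lower in DEHP by 0.85 on the log2 scale (SE 0.083, adjusted p = 8.17e-08), a log2 difference of -0.85. Acadvl and Pex11a both differed by -0.80 (adjusted p = 3.28e-07 and 2.15e-08). Among the 10 members not called, the 95% interval was -0.11 to 0.13 for Acot2, -0.031 to 0.16 for Cpt1a and -0.14 to 0.13 for Eci2. These intervals do not speak for all 10, since Hadha, also not called, had a much larger SE. After quantile normalization 6 members were called, and Hadhb (-0.76 as deposited) and Pex14 (-0.20) turned to 0.11 and 0.0066. Acadvl and Pex11a stood at -0.31 and -0.10 under that scaling and were no longer called. Of all 19231 entries, 171 were called higher and 379 lower under it. In this comparison 9 of 10 adipocyte markers were lower in DEHP.

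ROSI and MDI were compared directly, since both raised the set strongly. Here 11 members were higher in ROSI and 5 lower, against 9.47% and 10.8% of all entries, with a median difference of 0.046. Higher in ROSI were the thiolases Acaa1b (0.63, SE 0.087, adjusted p = 4.97e-06) and Acaa2 (0.55, adjusted p = 1.52e-08). Acadl was higher by 0.44, Eci1 by 0.38 and Cpt1a by 0.29. Lower in ROSI were Etfb (-0.57, adjusted p = 5.65e-06), Pex11a (-0.49), Scp2 (-0.47), Echs1 (-0.40) and Hadh (-0.21). After quantile normalization 16 members were higher and 0 lower, and Hadh stood at 0.14, so the 5 lower calls were not kept under that scaling. Of all 19231 entries, 1300 were called higher and 1317 lower under it. The call of Hadh was also lost without MDI replicate 1 or 3 or ROSI replicate 1 or 3. Among the 15 members not called, the 95% interval of Cat was -0.11 to 0.11, that of Etfdh -0.10 to 0.15 and that of Acaa1a -0.073 to 0.11. Hadha, also not called, had a much larger SE. Of 10 adipocyte markers, 7 were lower and 1 was higher in ROSI than in MDI.

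**Figure D4:**
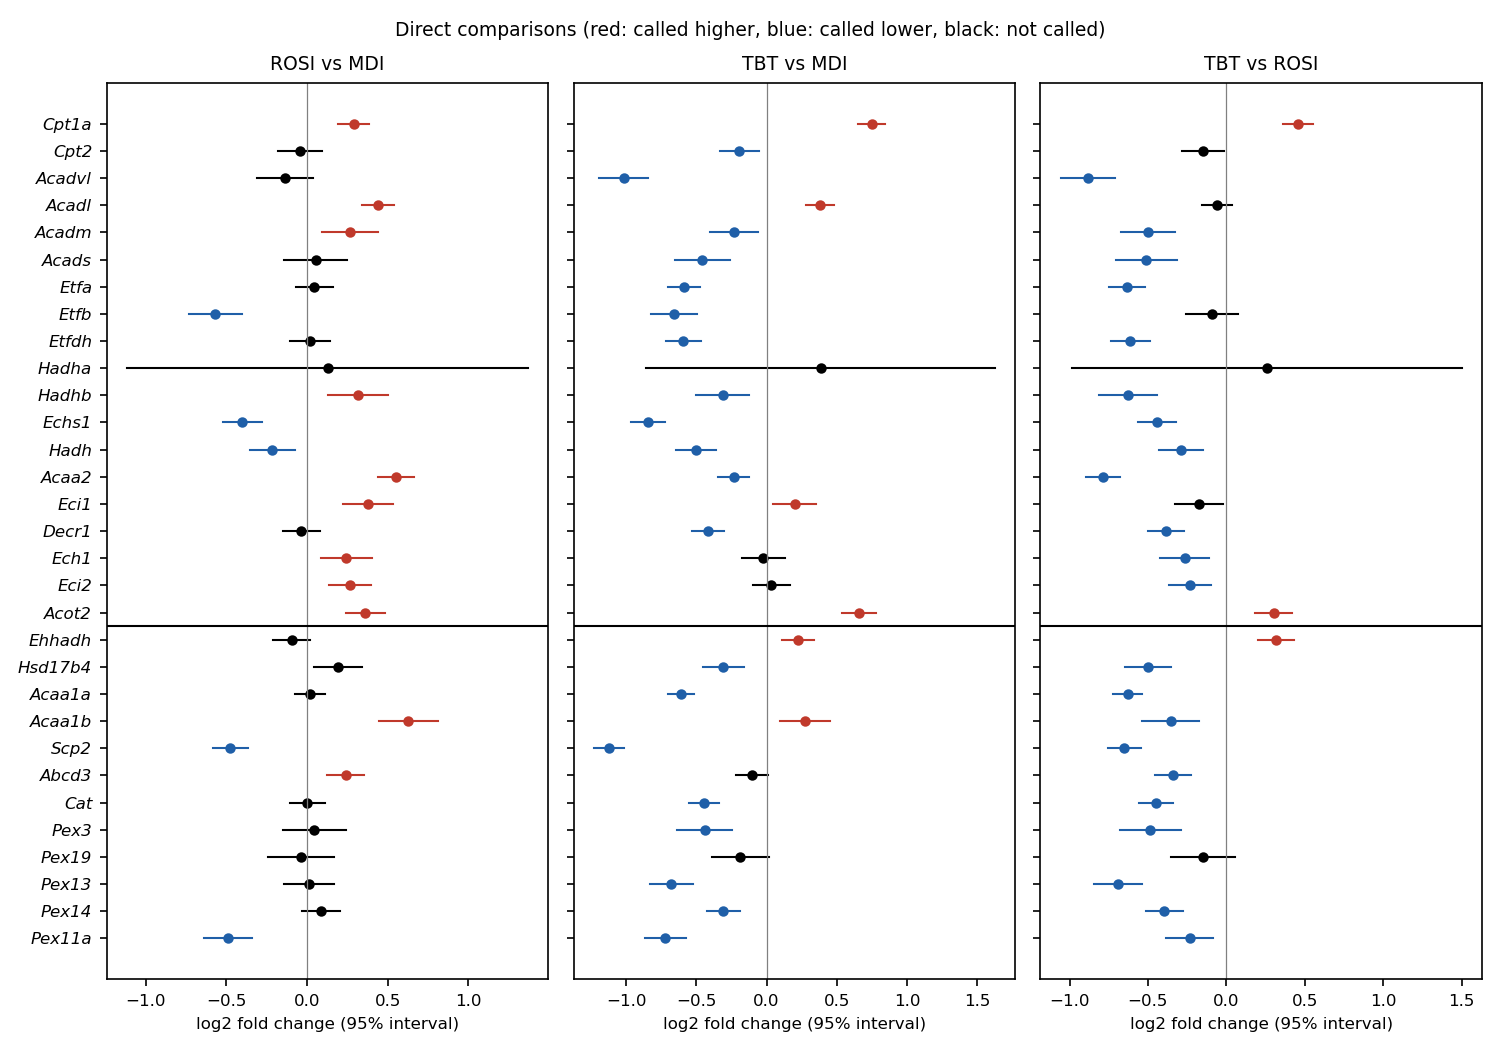
Log2 difference of each member between ROSI and MDI, TBT and MDI, and TBT and ROSI (points, with 95% intervals from limma, 3 arrays a group; red called higher, blue called lower, black not called). Cpt1a and Acot2 are higher in TBT than in MDI and ROSI, while most other members are lower in TBT. After quantile normalization 6 of the lower calls of TBT against MDI and 1 of ROSI against MDI (Hadh) turned positive.

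TBT against MDI gave 6 members higher and 20 lower, against 12.5% and 15.7% of all entries. Higher were Cpt1a (0.75, SE 0.047, adjusted p = 3.83e-12), Acot2 (0.66, adjusted p = 2.38e-09), Acadl (0.38), Acaa1b (0.27), Ehhadh (0.22) and Eci1 (0.20). The calls of Acaa1b and Eci1 were lost without single replicates of MDI or TBT (0.16 to 0.26). The 2 largest decreases were in Scp2 (-1.12, adjusted p = 1.49e-14) and Acadvl (-1.02, adjusted p = 8.15e-10). After quantile normalization 9 members were higher and 12 lower, and Acaa2, Acadm, Acads, Cpt2, Hadh and Hadhb turned positive. Of all 19231 entries, 1925 were called higher and 2114 lower under that scaling. TBT against ROSI gave 3 members higher and 22 lower (7.31% and 10.4% of all entries). Higher were Cpt1a (0.46, adjusted p = 8.11e-08), Ehhadh (0.32, adjusted p = 0.000172) and Acot2 (0.30, adjusted p = 0.000529), and these 3 calls held under the other scalings, probe rules and variance settings and without any single array. All 3 differences lay below a log2 fold change of 0.5, so a limit at that size left them out. Among the lower were Acadvl (-0.88) and Acaa2 (-0.79). Adipocyte markers were lower in TBT too, 10 of 10 against MDI and 8 of 10 against ROSI.

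Further genes of mitochondrial oxidation were taken from a list of 16, of which 15 were measured. In MDI 10 rose and 2 fell, against 20.1% of all entries called higher and 18.3% called lower. In ROSI 11 rose and 1 fell (16.5% and 14.3%), and in TBT 12 rose and 0 fell (14.1% and 10.6%). In EB 0 were called (0.432% and 0.25%), as in DEHP (0.0104% and 0.0052%). Their median log2 fold change in MDI was 0.49. Dbi, which binds acyl-CoA, rose by 2.23 in MDI (adjusted p = 9.88e-19). Cpt1b, the muscle-type carnitine palmitoyltransferase, rose by 0.92 in MDI and 1.88 in ROSI, a direct difference of 0.96 (adjusted p = 5.96e-13), and was lower in TBT than in ROSI (-1.24, adjusted p = 3.12e-14). Mlycd, which removes malonyl-CoA, the inhibitor of carnitine palmitoyltransferase, rose by 1.91 in ROSI and was higher there than in MDI by 0.74 (adjusted p = 1.5e-08).

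Of 36 other peroxisomal genes 29 were measured. In MDI 19 rose and 2 fell, against 20.1% of all entries called higher and 18.3% called lower. In ROSI 20 rose and 1 fell (16.5% and 14.3%), and in TBT 15 rose and 1 fell (14.1% and 10.6%). In EB 0 were called (0.432% and 0.25%), as in DEHP (0.0104% and 0.0052%). Gnpat, the first enzyme of ether lipid synthesis, rose by 2.15 in MDI (adjusted p = 1.45e-21), 1.54 in ROSI and 1.56 in PP. Nudt7, a coenzyme A hydrolase, rose by 1.13 in MDI and 1.26 in ROSI. Pex11g, a relative of Pex11a, and Pxmp2, a peroxisomal membrane channel, were lower in ROSI than in MDI by log2 differences of -0.63 and -1.04 (adjusted p = 1.26e-11 and 3.22e-07).

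Regulators of these pathways were taken from a list of 19, of which 18 were measured; Pparg is also an adipocyte marker. In MDI 12 rose and 0 fell, against 20.1% of all entries called higher and 18.3% called lower. In ROSI 13 rose and 0 fell (16.5% and 14.3%), and in TBT 11 rose and 0 fell (14.1% and 10.6%). Pparg, the main receptor of fat cell formation, rose by 2.54 in MDI, 1.15 in ROSI and 0.98 in TBT. Esrra, an ERR receptor of oxidative metabolism, rose by 1.56, 1.65 and 1.07 in the same groups. Ppara, the PPAR isoform of liver oxidation, was higher in ROSI than in MDI by 0.97 (adjusted p = 5.23e-07). Pdk4, the kinase that turns glucose carbon away from oxidation, was at -0.17 in MDI and was not called there, and rose by 1.62 in ROSI and 1.68 in TBT. Its direct differences from MDI were 1.79 in ROSI and 1.85 in TBT (adjusted p = 1.09e-15 and 5.37e-16).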

How the data were processed

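Gene expression of 3T3-L1 cells was measured on 30 two-colour arrays, and the authors deposited 1 log2 ratio per probe and array, per the labels as reference (Cy5) over sample (Cy3). The sign was turned so that higher means higher in the sample. Scale and direction were checked against 8 of the authors' deposited tables: group differences matched their log2 fold changes (r = 1, largest difference 5e-08 over 23460 probes). The mean profiles of DMSO and MDI correlated at r = -0.488 over probes, and array medians lay between -0.0034 and 0.014. The authors used limma, per the submitters' processing notes. Background correction and normalization before deposit are not given in the sources used here. No intensities were used, so dim probes were not filtered. Their deposited p-values were not used.

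Of 23460 probes, 26 control probes were left out, 18966 had 1 gene symbol and 4468 had none. Probes of a gene were averaged. A model with a mean for each group was fitted over the 30 arrays (lmFit and eBayes of limma 3.58.1, R 4.3.3; 20 residual degrees of freedom), with Benjamini-Hochberg adjustment over 19231 entries, and Python 3.11.15 with pandas 2.3.3 and matplotlib 3.10.9 was used for summaries. The fit was tested on simulated data of 19231 entries with 50 changed at each size. For MDI against DMSO it recovered 56%, 92%, 100% and 100% at log2 changes of 0.25, 0.5, 1 and 2. For PP against DMSO it recovered 46%, 92%, 98% and 100%.

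Members and gene lists were chosen with earlier results of these data known. Array values are given for up to 6 mitochondrial and 6 peroxisomal members with the largest called fold changes and for members called against most of their compartment. Array values of Hadha and Ehhadh were added after they were seen. Further genes of the pathways are the few of each list and comparison with the smallest p. A gene named by 1 comparison may have values given for others. Replicate numbers were checked for pairing: residuals of same-numbered arrays correlated at 0.127 to 0.207 for PP against DMSO, and in no other comparison did all pairs exceed 0.1. The alternatives tried were other scalings, probe rules, array weights, robust variance, a replicate block, stricter calls and leaving out arrays.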

Additional observations from a re-analysis of the deposited data

How the results depend on the processing

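Of 281 calls of a member in a comparison, 202 were kept under every other scaling, probe rule and variance setting, the replicate block, the fit of only the compared groups and every removal of a single array, and 79 were lost under at least 1 of these. Stricter limits on fold change or adjusted p are not part of these 2 counts. The 10 that changed sign did so under quantile normalization: Hadhb in BBP (-0.18), Hadh in ROSI against MDI (0.14), Acaa2, Acadm, Acads, Cpt2, Hadh and Hadhb in TBT against MDI (0.23, 0.27, 0.0049, 0.037, 0.093 and 0.14), and Hadhb and Pex14 in DEHP against BBP (0.11 and 0.0066). The cause was not tested. Members called under quantile normalization numbered 9 in BPA, 5 in BBP, 0 in EB and 6 in DEHP against BBP. With a log2 fold change of at least 0.5 they numbered 11 in BPA, 10 in BBP, 0 in EB, 3 in ROSI against MDI, 12 in TBT against MDI, 10 in TBT against ROSI and 8 in DEHP against BBP. In EB 1 was called with array weights, 0 with only the compared groups, 2 with the most variable probe, 0 at an adjusted p under 0.01 and 0 to 6 when single arrays were left out. With the replicate block the count was 25 in BPA in place of 24, and the other counts were as without it. In PP the count was 27. There residuals of same-numbered arrays correlated at 0.127 to 0.207, but no label says that a number marks a shared batch.

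The mitochondrial minus peroxisomal median changed sign in BPA and kept its sign in the other comparisons under the alternatives run, but moved in size. Under quantile normalization it was 0.157 in MDI, -0.142 in BPA, 0.0285 in BBP, 0.00227 in BP, -0.0257 in EB, 0.372 in TBT against MDI, 0.229 in TBT against ROSI and -0.0671 in DEHP against BBP. With the most variable probe it was 0.601 in MDI, 0.307 in ROSI, 0.432 in TBT, 0.0408 in BPA (reversed), 0.145 in BBP, 0.190 in BP, 0.283 in PP, 0.0605 in TBT against MDI and -0.179 in DEHP against BBP. Without the Pex genes it was 0.325 in ROSI, 0.414 in TBT, 0.0624 in BPA (reversed), -0.0213 in EB and 0.0724 in TBT against MDI. With Crat, Eci2 and Ech1 left out it was 0.434 in TBT, 0.283 in PP, 0.0382 in ROSI against MDI, 0.0625 in TBT against MDI and 0.0362 in TBT against ROSI. Array weights gave -0.0229 in EB and 0.237 in ROSI against MDI. Leaving out single arrays gave 0.347 to 0.418 in MDI, 0.264 to 0.375 in TBT, -0.0703 to -0.00433 in BPA, -0.102 to -0.0239 in EB and 0.00443 to 0.236 in ROSI against MDI, the last lowest without MDI replicate 1. Leaving out Hadha, an alternative chosen after seeing the data, moved none of the 13 differences beyond the replicate spread.

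Over all entries, quantile normalization moved the share of calls that were higher from 63.8% to 51.8% in BPA, 74.6% to 53.7% in BBP, 63.4% to 20.7% in EB, 66.7% to 28.6% in DEHP and 16.1% to 31.1% in DEHP against BBP. Calls over all entries in BBP went from 1327 higher and 451 lower to 628 and 542 under it, and to 930 and 186 with only the compared groups. In EB 83 higher and 48 lower became 6 and 23 with quantile normalization, 56 and 25 with array weights, 44 and 32 with the most variable probe and 0 with only the compared groups. In DEHP 2 higher and 1 lower became 4 and 10, 21 and 16, 1 and 1, and 0 in the same order, and 9 and 7 with the replicate block. With quantile normalization, 2363 higher and 1340 lower in BPA became 1493 and 1392, and in DEHP against BBP 176 and 917 became 171 and 379. Further genes of the pathways and the regulators were not recomputed under the alternatives. No intensity over background was used, so what dim probes can show is unknown.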
